A study of Rattus norvegicus with 12 samples.

Results

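The early transcriptional response of rat vascular smooth muscle cells (RVSMCs) to angiotensin II (AngII) was described across all genes, from the 6 arrays of cells that carried a non-targeting GapmeR (NCGap). These were all the arrays of a 12-array series labelled NCGap with PBS (3 arrays) or NCGap with 100 nM AngII for 3 h (3 arrays). The other 6 arrays came from cells that carried a GapmeR against the long non-coding RNA *Alivec* (*Alivec*Gap), and they entered the filter on signal and the estimate of spread and are otherwise used below as separate cultures given the same 2 treatments. The cells had been released by enzymatic digestion from the thoracic aorta, stripped of endothelium, of male Sprague-Dawley rats aged 12 weeks, and were grown for several passages. All groups received 100 nM of a GapmeR, an antisense oligonucleotide with locked nucleic acid ends that recruits RNase H to its target, with a lipid reagent for 48 h, and the methods give 24 h without serum before AngII. The PBS cells are therefore transfected, serum-deprived cultured cells rather than untouched aorta. The titles label the 3 arrays of each group as biological replicates. How many rats stand behind an array, and whether their cells were pooled, is not given in the sources used here. The p values therefore reflect only the scatter from array to array.

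AngII acts on RVSMCs mainly through the AT1 receptor, which couples to Gq and phospholipase C, raises cytosolic calcium and activates protein kinase C, and also transactivates the EGF receptor and the ERK cascade. Within minutes these signals switch on immediate early genes that encode transcription factors and short-lived regulators, and a later wave of growth factors, enzymes and matrix genes follows. In the vessel wall AngII is known for contraction, hypertrophic growth, inflammation and matrix remodelling.

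The arrays report a log2 signal for 23188 probe sets, and 14796 of them, which stand for 10184 named genes and 4605 unnamed probe sets, were tested because 3 or more of the 12 arrays gave them a log2 signal of 6 or higher. Across probe sets, arrays correlated at 0.988 to 0.993 within the PBS or AngII group and at 0.962 to 0.968 between the groups, and the first principal component of the 6 arrays held 71.2% of the variance and separated AngII from PBS. The median SD of a probe set over 3 arrays was 0.119 with PBS and 0.0996 with AngII on the log2 scale. Contractile smooth muscle genes had higher mean signals than the marker lists of other cell types, of which adventitial fibroblast markers stood highest. The 37 tested contractile smooth muscle genes had a mean log2 signal of 10.38 to 10.45 on the PBS arrays and 10.31 to 10.33 on the AngII arrays. Of 12 endothelial markers on the array, 8 were under log2 6 on all 6 arrays, among them *Pecam1*, *Cdh5*, *Vwf* and *Tek*, and the mean over the 12 was 5.38 to 5.54 with PBS and 5.39 to 5.57 with AngII. Leukocyte markers averaged 5.45 to 5.59 with PBS and 5.45 to 5.65 with AngII over 20 genes. Of the 20, 12 were under log2 6 on all 6 arrays, among them *Ptprc* at 4.06 or less. Of the 7 that were tested, 0 rose and 1 fell, *Coro1a*, by 0.30 on the log2 scale. That is a share of 14.3%, against 18.7% of all tested named genes. Adventitial fibroblast markers averaged 7.09 to 7.20 with PBS and 6.95 to 7.02 with AngII over 13 genes. Of the 10 that were tested, 0 rose, 8 did not pass the test used below and 2 fell. The 2 were *Pdgfra*, by 0.58, and *Lum*, by 0.35 on the log2 scale, a share of 20% near the 18.7% of all tested named genes. Schwann cell and adipocyte markers averaged 5.06 to 5.30 with PBS and 5.16 to 5.35 with AngII over 9 genes. The part of other cells in the results was not tested. In cultures measured as a whole, fewer cells of a type and less RNA per cell cannot be told apart.

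AngII changed a large share of the transcriptome within 3 h, and its largest effects were increases. At a Benjamini-Hochberg adjusted p under 0.05 in limma, 1968 probe sets rose (13.3%) and 2652 fell (17.9%). Among those changed at least 2-fold, 293 rose (1.98%) and 126 fell (0.852%). At 4-fold or more, 56 rose and 5 fell, and at 8-fold or more 19 rose and 0 fell. The median log2 difference was 0.47 among the raised and -0.41 among the lowered probe sets, so most calls were of modest size. Raised probe sets were 42.6% of all calls, but with each array centred on its median they were 55.7% (2309 raised and 1836 lowered), and the many small decreases therefore depend on the scaling. The median log2 difference over all tested probe sets was -0.05. The 3 AngII arrays and the 3 PBS arrays did not overlap for 6247 probe sets (42.2%).

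**Figure D1:**
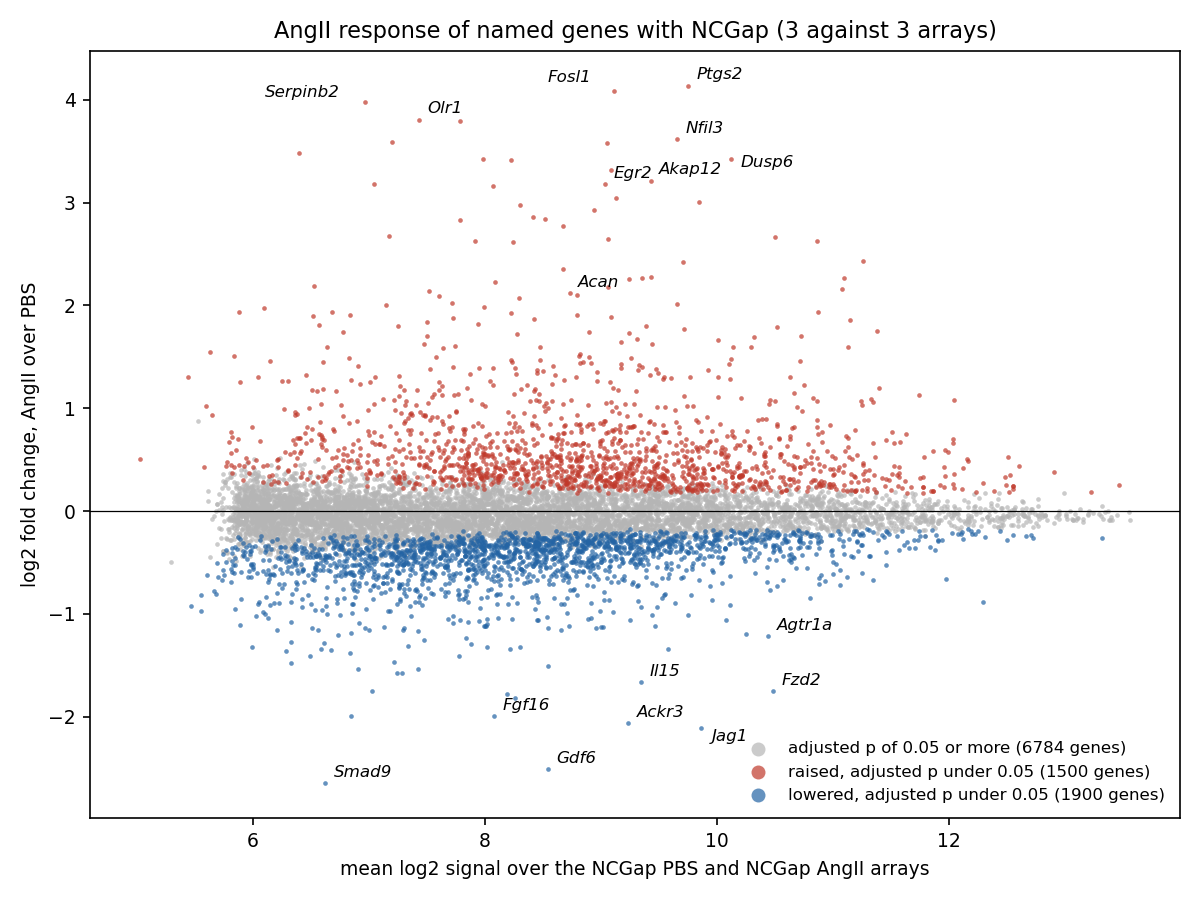
Each point is a tested named gene, with its mean log2 signal over the PBS and AngII arrays on the x axis and the log2 fold change of AngII over PBS on the y axis (n = 3 arrays per group), red where it rose and blue where it fell at an adjusted p under 0.05. The raised genes reach a log2 fold change of 4.14 (*Ptgs2*) and the lowered genes reach -2.65 (*Smad9*, whose AngII mean was under log2 6).

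The same treatments of the *Alivec*Gap cells gave 6 further arrays. They entered the filter and the estimate of spread behind the NCGap calls, but not the NCGap differences themselves, and with only the 6 NCGap arrays 1648 probe sets rose and 2039 fell. All 293 probe sets raised at least 2-fold with NCGap were also higher with AngII in those cells, and 291 of them passed an adjusted p under 0.05 there, where 10.9% of all probe sets were raised. All 126 probe sets lowered at least 2-fold were lower there as well, and 125 passed, against 16.1% of all probe sets. Of all 1968 raised probe sets, 1921 had the same sign and 1347 passed. Of all 2652 lowered probe sets, 2600 had the same sign and 1705 passed. No probe set had a response that differed between the GapmeRs at an adjusted p under 0.05 in the limma interaction test, while 814 (5.5%) did at an unadjusted p under 0.05 and 692 at the thresholds of the study. No response below is called particular to NCGap.

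Among named genes 14.7% rose and 18.7% fell, and 2.30% rose and 0.844% fell at least 2-fold. These shares are the background for the counts of gene lists that follow, each of which covers the members that were tested. The lists were written with earlier results of these data known. A share above or below the background is therefore a description and not independent evidence about a pathway. The 5 chondrogenic genes that the study followed up, partly from this array series, had the highest median log2 difference (2.07). Next came EGR and NR4A factors, feedback inhibitors of MAP kinase signaling, early kinases and signaling regulators, other early transcription factors and stress response genes. The lists that stood lowest held HOX genes, developmental factors, cell cycle genes and cholesterol synthesis.

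**Figure D2:**
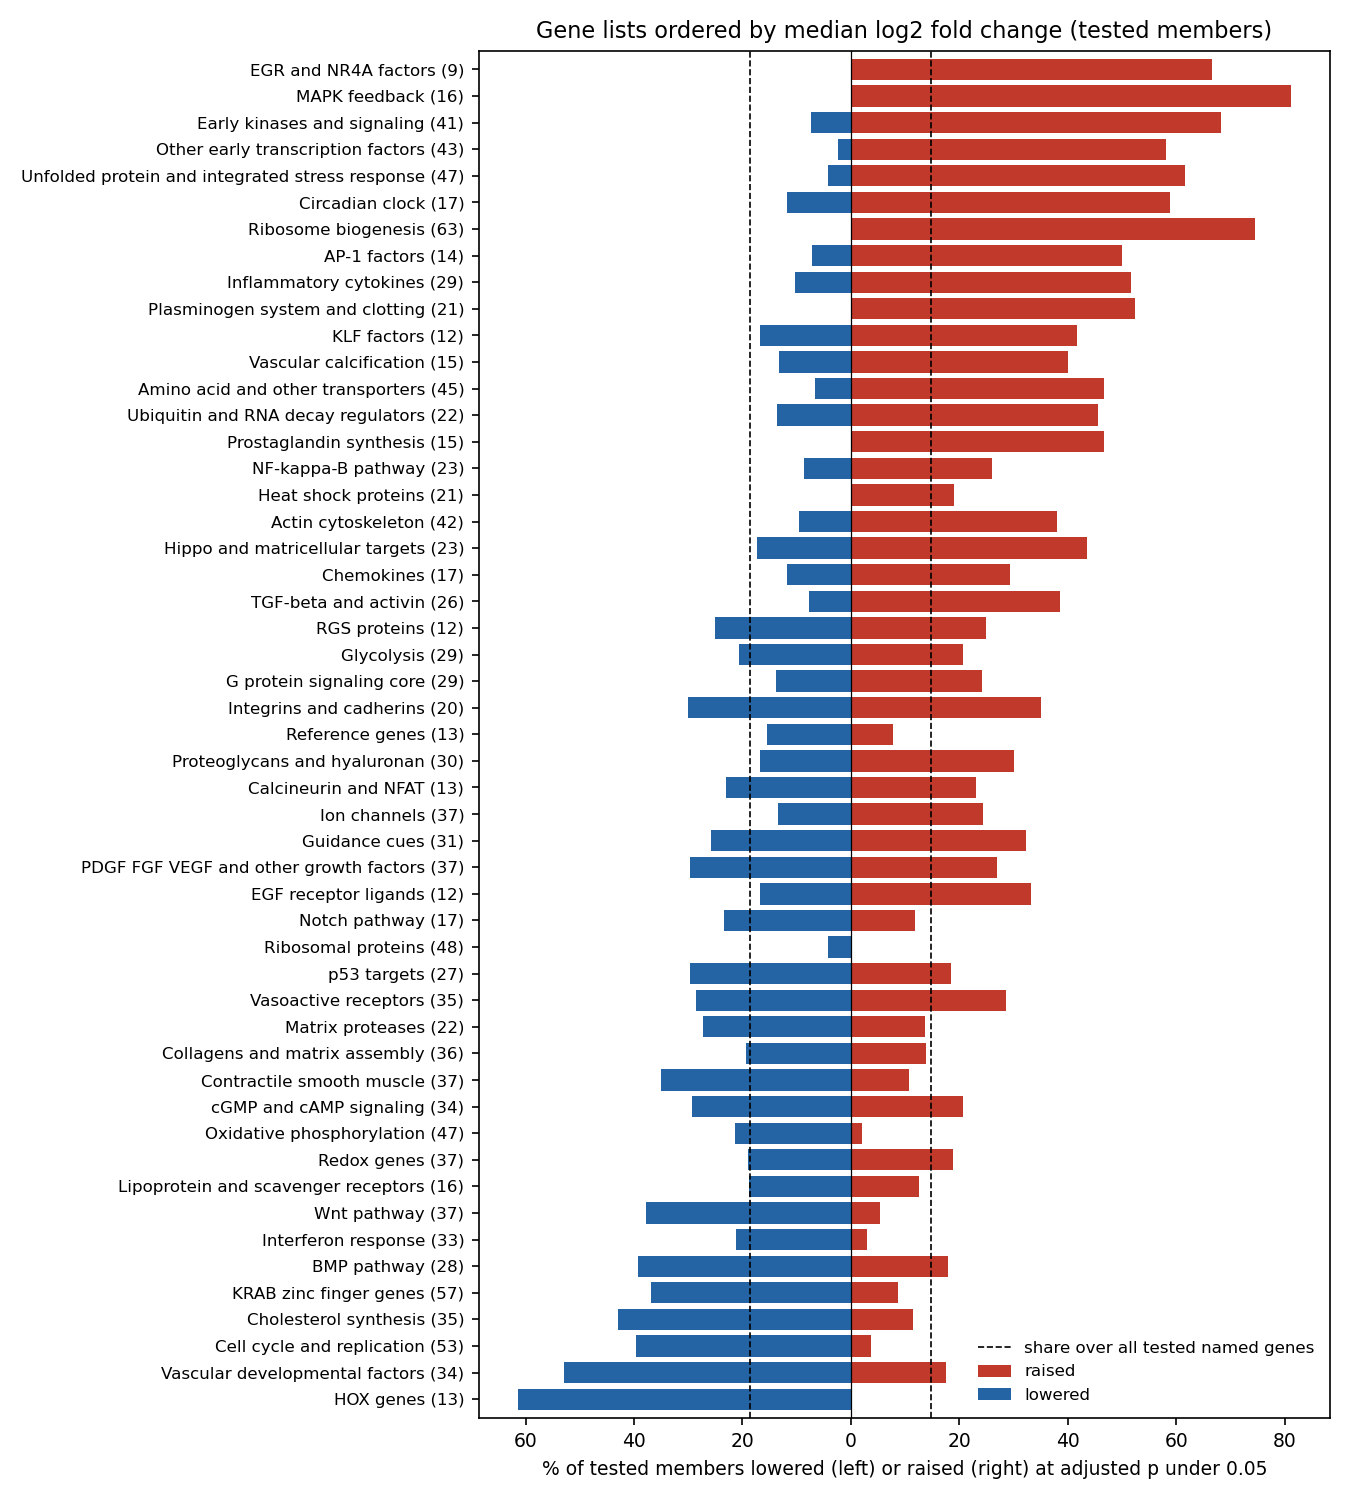
Bars give the percentage of the tested members of each gene list (number in parentheses) that rose (red, right) or fell (blue, left) at an adjusted p under 0.05, and the dashed lines mark the shares over all tested named genes (14.7% raised and 18.7% lowered). The lists are ordered by their median log2 fold change, from EGR and NR4A factors at 1.59 down to HOX genes at -0.38, and lists with fewer than 9 tested members and lists of other cell types are not drawn.

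Immediate early transcription factors were raised strongly, but not uniformly. Of 9 tested EGR and NR4A genes, 6 rose, 5 of them at least 2-fold, and 0 fell, with a median log2 difference of 1.59 against -0.05 over all probe sets. EGR proteins are zinc finger factors and NR4A proteins are orphan nuclear receptors, and both are induced by calcium and ERK signals. *Egr1* had log2 signals of 10.01, 9.92 and 9.96 with PBS and 12.24, 12.19 and 12.27 with AngII. *Egr2* had 7.37, 7.43 and 7.53 with PBS and 10.64, 10.64 and 10.60 with AngII. *Nr4a3* had 5.41, 5.33 and 5.47 with PBS and 8.96, 9.04 and 8.97 with AngII. For each of the 3 genes the arrays of a group lay close together and the groups did not overlap. These values correspond to a rise of 4.81-fold (log2 difference 2.27 ± 0.071 (SE), adjusted p = 5.7e-10) for *Egr1*, 9.07-fold (log2 difference 3.18 ± 0.072 (SE), adjusted p = 7.6e-11) for *Egr2* and at least 7.96-fold (log2 difference 3.59 ± 0.16 (SE), adjusted p = 8.9e-09) for *Nr4a3*, where a bound is given because the PBS mean was under log2 6 and was set to 6. *Nr4a1* rose 8.92-fold. *Egr3*, whose second PBS array was at 5.30 and the others at 6.04 and 6.19, rose at least 2.71-fold (log2 difference 1.59 ± 0.24 (SE), adjusted p = 3.0e-04). *Nab2*, a corepressor of EGR proteins, rose 1.40-fold, while *Nr4a2* (log2 difference 0.22), *Egr4* (-0.16) and *Nab1* (-0.02) did not pass.

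Of 14 tested AP-1 and related bZIP genes, 7 rose, 2 of them at least 2-fold, and 1 fell. AP-1 is a dimer of FOS and JUN family proteins. *Fosl1*, which encodes Fra-1, had log2 signals of 7.36, 6.80 and 7.06 with PBS and 11.17, 11.11 and 11.19 with AngII. The PBS arrays were more scattered than the AngII arrays, all of which lay far above them, and the rise was 17-fold (log2 difference 4.09 ± 0.12 (SE), adjusted p = 4.4e-10). *Junb* had log2 signals of 8.30, 8.05 and 8.07 with PBS and 9.88, 10.07 and 10.14 with AngII and rose 3.70-fold. *Fosb* rose 1.79-fold, and the small *Maf* genes *Maff*, *Mafk* and *Mafg* rose 1.74-fold, 1.73-fold and 1.41-fold. *Jun* (log2 difference 0.10), *Jund* (-0.18) and *Atf3* (0.06) did not pass at 3 h, and *Maf*, a large *Maf* factor, fell to 0.727 of its PBS level. *Fos* itself stayed between 5.13 and 5.76 on the 6 arrays and was not tested.

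Beyond these families, 25 of 43 tested other early transcription factors rose and 1 fell. *Nfil3*, a bZIP repressor of the clock output pathway, had log2 signals of 7.77, 7.88 and 7.90 with PBS and 11.45, 11.46 and 11.48 with AngII and rose 12.2-fold (log2 difference 3.61 ± 0.07 (SE), adjusted p = 2.1e-11). Its 3 AngII arrays were almost equal. *Hivep3*, a large zinc finger factor, rose 5.36-fold, *Csrnp1* rose 3.57-fold and *Bhlhe40*, a basic helix-loop-helix repressor, rose 3.19-fold. The proto-oncogene *Myc* had log2 signals of 8.15, 7.73 and 8.24 with PBS and 8.88, 9.07 and 9.19 with AngII and rose 2.0-fold. *Mxi1*, an antagonist of *Myc* at its partner *Max*, was the gene that fell, to at most 0.667 of its PBS level. The ETS factors *Ets1*, *Ets2* and *Elk3* rose 2.33-fold, 2.35-fold and 2.05-fold, and *Srf*, the serum response factor, rose 1.44-fold. Among 12 Krüppel-like factors 5 rose and 2 fell, with *Klf6* up 3.13-fold, *Klf10* up at least 1.69-fold and *Klf4* up 1.59-fold, and *Klf15* down to 0.622 of its PBS level. *Klf2* (0.29) and *Klf5* (-0.02) did not pass.

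The promoters of the raised genes were searched for short motifs, among them those known for AP-1, EGR proteins and serum response factor. Whether these factors act on the genes was not tested. RefSeq promoters of build GRCr8, from 250 bases before to 50 bases after the start, were found for 8487 of the 10184 tested genes, for 190 of the 234 genes raised at least 2-fold and for 64 of the 86 genes lowered at least 2-fold. Both strands were searched. The AP-1 letters TGANTCA, where N is any base, stood in 22 of the 190 raised promoters (11.6%), in 6 of the 41 raised at least 4-fold (14.6%), in 6.25% of the lowered, in 5.13% of those of all tested genes and in 7.33% of all 27457 promoters. The EGR letters GCGNGGGCG stood in 12.6% of the raised, 12.2% of those raised at least 4-fold (5 of 41), 7.81% of the lowered, 9.54% of the tested and 5.29% of all promoters. The CArG box, the site of serum response factor, stood in 2.63% of the raised, 7.32% of those raised at least 4-fold (3 of 41), 1.33% of the tested and 1.64% of all promoters. The CRE letters TGACGTCA stood in 5.26% of the raised, in 0 of the 41 raised at least 4-fold and in 3.20% of the tested promoters. The NR4A letters AAAGGTCA stood in 0.526% of the raised, 2.44% of those raised at least 4-fold (1 of 41) and 0.813% of the tested. TATAAA stood in 14.7% of the raised, 9 of the 41 raised at least 4-fold, 7.33% of the tested and 14.3% of all promoters. These shares are descriptions. A match is not shown to be bound, and most of the strongly raised promoters, *Ptgs2* and *Fosl1* among them, held none of the AP-1, EGR, CRE and CArG letters in this window.

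Promoters are shown for 5 of the genes raised at least 4-fold, because they show the AP-1 letters in 3 genes of pericellular proteolysis and lipid uptake and the CArG box in a transcription factor and a phosphatase of the early response. Capitals mark the AP-1 letters in *Serpinb2* (chr13:24055771-24056070, plus strand), *Olr1* (chr4:164634498-164634797, minus strand) and *Plaur* (chr1:89181113-89181412, plus strand), the CArG box in *Egr2* (chr20:21054392-21054691, minus strand), and in *Dusp5* (chr1:262543524-262543823, plus strand) first the EGR letters and then a pair of adjoining CArG boxes, all on GRCr8 and written 5′ to 3′ along the gene's strand.
Serpinb2: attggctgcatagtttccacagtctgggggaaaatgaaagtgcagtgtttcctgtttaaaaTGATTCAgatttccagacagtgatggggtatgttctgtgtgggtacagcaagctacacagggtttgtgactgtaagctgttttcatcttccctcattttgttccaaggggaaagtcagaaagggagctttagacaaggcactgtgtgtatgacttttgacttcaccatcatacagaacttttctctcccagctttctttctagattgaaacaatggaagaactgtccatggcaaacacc
Olr1: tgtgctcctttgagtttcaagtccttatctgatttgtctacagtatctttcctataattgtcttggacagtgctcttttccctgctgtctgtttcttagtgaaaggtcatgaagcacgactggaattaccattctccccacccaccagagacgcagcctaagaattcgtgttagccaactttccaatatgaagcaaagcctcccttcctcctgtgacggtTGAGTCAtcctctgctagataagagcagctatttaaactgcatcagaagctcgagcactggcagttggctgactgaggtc
Plaur: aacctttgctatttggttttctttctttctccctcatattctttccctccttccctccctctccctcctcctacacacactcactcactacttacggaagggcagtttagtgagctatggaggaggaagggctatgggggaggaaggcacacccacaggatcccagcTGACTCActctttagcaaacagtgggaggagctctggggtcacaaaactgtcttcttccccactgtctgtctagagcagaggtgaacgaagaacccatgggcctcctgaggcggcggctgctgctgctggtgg
Egr2: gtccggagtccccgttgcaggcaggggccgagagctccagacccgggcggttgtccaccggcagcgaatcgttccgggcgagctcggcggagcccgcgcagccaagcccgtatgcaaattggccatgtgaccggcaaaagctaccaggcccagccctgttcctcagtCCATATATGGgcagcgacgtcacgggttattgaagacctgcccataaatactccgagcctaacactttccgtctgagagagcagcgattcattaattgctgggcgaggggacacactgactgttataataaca
Dusp5: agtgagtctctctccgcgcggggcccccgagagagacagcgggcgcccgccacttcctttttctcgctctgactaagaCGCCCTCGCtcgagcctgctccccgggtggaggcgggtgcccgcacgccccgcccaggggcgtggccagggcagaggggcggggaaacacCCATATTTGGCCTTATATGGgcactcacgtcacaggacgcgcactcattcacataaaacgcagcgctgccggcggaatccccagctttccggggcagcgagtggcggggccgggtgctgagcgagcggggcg

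**Figure D3:**
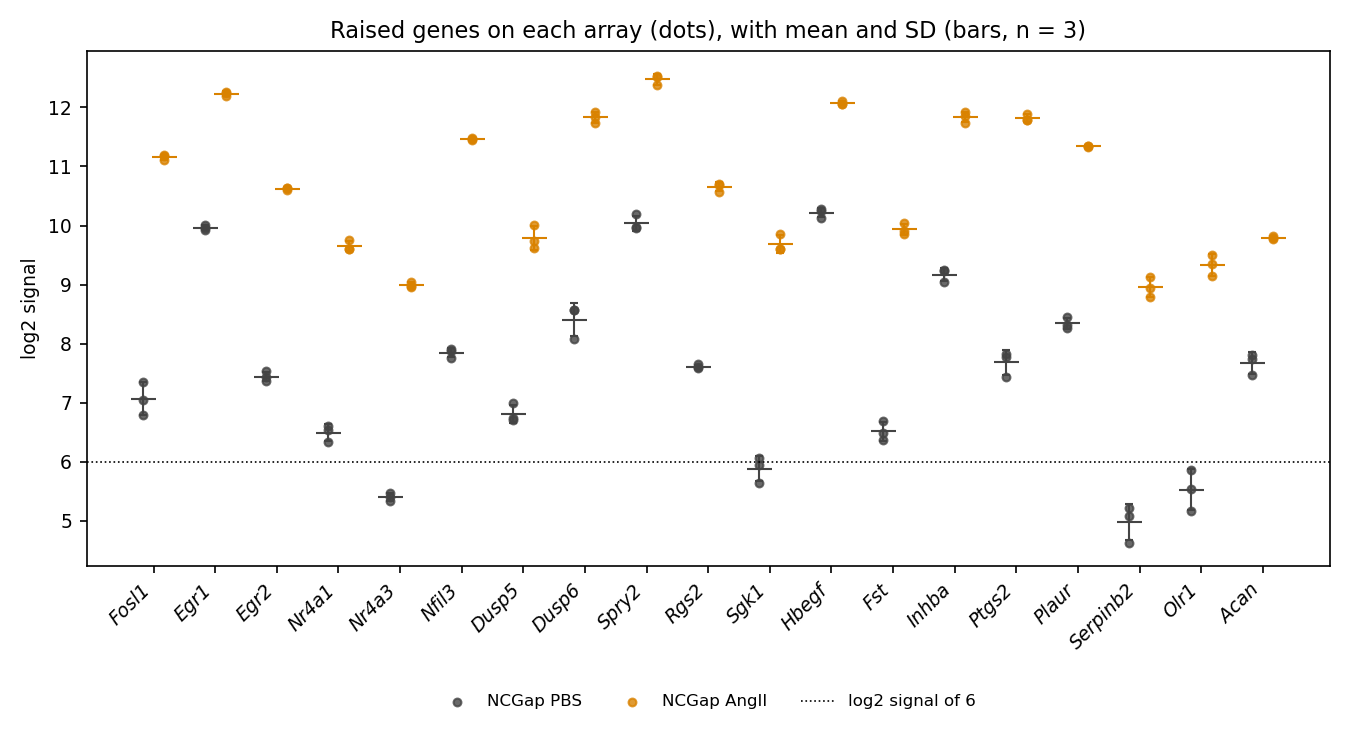
Points are the log2 signals of raised genes on each of the 3 NCGap PBS (grey) and 3 NCGap AngII (orange) arrays, bars are the mean and SD, and the dotted line marks the log2 signal of 6 used as the lower limit. The genes were picked as raised, so the lack of overlap between their groups follows from that choice (42.2% of all tested probe sets did not overlap). The PBS means of *Sgk1*, *Nr4a3*, *Olr1* and *Serpinb2* lie under 6.

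Inhibitors that end MAP kinase signaling rose together. Of 16 tested members, 13 rose, 9 of them at least 2-fold, and 0 fell, with a median log2 difference of 1.12. *Dusp6*, a cytoplasmic phosphatase of ERK, had log2 signals of 8.57, 8.08 and 8.58 with PBS and 11.84, 11.73 and 11.92 with AngII. *Dusp5*, a nuclear phosphatase of ERK whose promoter is shown above, had 6.99, 6.74 and 6.71 with PBS and 9.74, 9.62 and 10.01 with AngII. *Spry2*, an inhibitor of receptor tyrosine kinase signaling upstream of ERK, had 9.96, 9.97 and 10.19 with PBS and 12.51, 12.53 and 12.37 with AngII. All AngII arrays of the 3 genes lay above all PBS arrays, and the rise was 10.7-fold (log2 difference 3.42 ± 0.14 (SE), adjusted p = 6.2e-09) for *Dusp6*, 7.85-fold (log2 difference 2.97 ± 0.12 (SE), adjusted p = 5.3e-09) for *Dusp5* and 5.39-fold (log2 difference 2.43 ± 0.078 (SE), adjusted p = 7.1e-10) for *Spry2*. *Errfi1*, an inhibitor of the EGF receptor, rose 4.29-fold, *Spry4* rose 4.0-fold and *Dusp10*, a phosphatase of p38 and JNK, rose 3.36-fold. *Dusp1*, often the first of these phosphatases to be induced, was 1.78-fold higher at 3 h, and *Dusp8*, *Dusp9* and *Dusp16* did not pass.

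Of 41 tested early kinases and signaling regulators, 28 rose and 3 fell. *Sgk1*, a kinase that promotes sodium transport and cell survival, had log2 signals of 5.65, 5.95 and 6.06 with PBS and 9.60, 9.60 and 9.86 with AngII and rose at least 12.9-fold (log2 difference 3.80 ± 0.11 (SE), adjusted p = 4.4e-10). The pseudokinases *Trib1* and *Trib2* rose 6.18-fold and 7.15-fold, *Sphk1*, which makes sphingosine 1-phosphate, rose 2.73-fold, and *Arc* rose at least 3.47-fold. The 3 that fell were *Rnd3*, to 0.630 of its PBS level, and the antiproliferative genes *Btg1* and *Tob1*, to 0.627 and 0.620 of their PBS levels. Of 22 ubiquitin and RNA decay regulators 10 rose and 3 fell. *Zfp36* and *Zfp36l2*, which destabilise mRNAs with AU-rich elements, rose at least 1.81-fold and 3.47-fold, and *Fbxo32*, the muscle ubiquitin ligase atrogin-1, fell to 0.515 of its PBS level.

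The receptor for AngII was itself lowered. *Agtr1a*, the main AT1 receptor gene of the rat, had log2 signals of 11.05, 10.95 and 11.16 with PBS and 9.69, 9.85 and 9.95 with AngII. All 3 AngII arrays lay about 1 log2 unit or more below all 3 PBS arrays, and the level fell to 0.429 of its PBS level (log2 difference -1.22 ± 0.088 (SE), adjusted p = 7.0e-07). *Agtr1b*, which lay near the filter at 6.03, 6.28 and 6.18 with PBS and 5.85, 5.50 and 5.99 with AngII, fell to at most 0.892 of its PBS level. Over 35 tested vasoactive receptors and their partners 10 rose and 10 fell, so the list had no common direction. *Avpr1a*, the vasopressin receptor that also couples to Gq, had log2 signals of 9.41, 9.48 and 9.52 with PBS and 11.04, 11.29 and 11.16 with AngII and rose 3.23-fold (log2 difference 1.69 ± 0.07 (SE), adjusted p = 5.7e-09). *S1pr1*, a receptor for sphingosine 1-phosphate, rose 3.25-fold, *S1pr3* 2.07-fold and *Ramp3*, a partner of the calcitonin receptor-like receptor, 2.21-fold. *P2ry6*, a receptor for UDP, had log2 signals of 8.55, 8.44 and 8.60 with PBS and 7.09, 7.23 and 7.40 with AngII and fell to 0.409 of its PBS level (log2 difference -1.29 ± 0.09 (SE), adjusted p = 5.8e-07). The lysophosphatidic acid receptors *Lpar4* and *Lpar6* fell to at most 0.625 and 0.558 of their PBS levels, *Adra1b* to 0.715 of its PBS level, and the natriuretic peptide receptors *Npr3* and *Npr1* to 0.653 and 0.793 of their PBS levels.

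RGS proteins, which speed the inactivation of G proteins, moved in opposite directions, with 3 of 12 raised and 3 lowered. *Rgs2*, a selective inhibitor of Gq, had log2 signals of 7.58, 7.61 and 7.65 with PBS and 10.71, 10.57 and 10.69 with AngII and rose 8.26-fold (log2 difference 3.05 ± 0.11 (SE), adjusted p = 1.9e-09). *Rgs16* rose 4.07-fold. *Rgs4*, which also acts on Gq, had log2 signals of 7.17, 7.39 and 7.45 with PBS and 5.97, 6.63 and 5.80 with AngII and fell to 0.433 of its PBS level (log2 difference -1.21 ± 0.18 (SE), adjusted p = 2.9e-04). Its second AngII array was higher than the other AngII arrays, yet below every PBS array. The G protein core itself changed little, with 7 of 29 raised and 4 lowered (2 lowered without AngII replicate 2) and 0 changed 2-fold: *Gnaq* and *Gna11*, the Gq subunits, had log2 differences of 0.00 and 0.03. *Itpkb*, an inositol trisphosphate kinase, fell to at most 0.709 of its PBS level, and *Arrb1*, a beta-arrestin, to 0.641 of its PBS level. Downstream of calcium, 3 of 13 calcineurin and NFAT genes rose and 3 fell. *Rcan1*, an inhibitor of calcineurin that is itself a calcineurin target, had log2 signals of 9.25, 9.49 and 9.41 with PBS and 10.82, 10.82 and 10.82 with AngII and rose 2.70-fold, and *Nfatc1* rose 1.81-fold, while *Nfatc3* fell to 0.644 of its PBS level.

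Growth factor genes changed member by member. *Hbegf*, the shed EGF receptor ligand that mediates AngII transactivation, had log2 signals of 10.24, 10.27 and 10.13 with PBS and 12.06, 12.11 and 12.05 with AngII and rose 3.62-fold (log2 difference 1.86 ± 0.062 (SE), adjusted p = 9.3e-10). Of 12 members of its list 4 rose and 2 fell. *Areg* and *Ereg*, further ligands of the EGF receptor, rose at least 1.80-fold and 1.38-fold, and *Btc* and *Nrg1* fell to 0.568 and 0.673 of their PBS levels. Among 37 other growth factors and receptors 10 rose and 11 fell. *Flt1*, a VEGF receptor, rose 3.52-fold, *Fgf7* at least 1.84-fold, *Fgf2* 2.35-fold, *Csf1* 2.12-fold and *Pdgfa* 1.82-fold. *Fgf16* had log2 signals of 9.36, 8.62 and 9.25 with PBS and 6.98, 7.39 and 6.87 with AngII and fell to 0.251 of its PBS level (log2 difference -1.99 ± 0.18 (SE), adjusted p = 4.9e-06). The PDGF receptors *Pdgfrb* and *Pdgfra* fell to 0.769 and 0.670 of their PBS levels. *Vegfa* had a log2 difference of 0.12, which did not pass (adjusted p = 0.13), and its groups were nevertheless separate.

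Within the TGF-beta superfamily, the list of TGF-beta and activin genes held more raised members and the list of BMP pathway genes more lowered members. Of 26 tested TGF-beta and activin genes 10 rose and 2 fell. *Inhba*, the subunit of activin A, had log2 signals of 9.24, 9.04 and 9.22 with PBS and 11.74, 11.85 and 11.92 with AngII and rose 6.35-fold (log2 difference 2.67 ± 0.076 (SE), adjusted p = 3.4e-10). *Fst*, follistatin, which binds and neutralises activin, had 6.69, 6.37 and 6.50 with PBS and 9.90, 9.86 and 10.05 with AngII and rose 10.7-fold (log2 difference 3.42 ± 0.1 (SE), adjusted p = 4.7e-10). The ligand and its inhibitor were thus both raised on every AngII array. *Tgif1*, a repressor of SMAD-driven transcription, rose 3.03-fold, *Pmepa1* 1.77-fold and the inhibitory *Smad7* 1.71-fold. *Tgfb1* rose 1.47-fold, whereas *Tgfb2* had a log2 difference of -0.10 and did not pass.

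Of 28 tested BMP pathway genes 5 rose and 11 fell, with 2 of the 11 lowered at least 2-fold. *Smad9*, the receptor-regulated SMAD of the BMP branch also called Smad8, had log2 signals of 8.09, 7.64 and 8.11 with PBS and 5.14, 5.30 and 5.46 with AngII. The 3 AngII arrays were under log2 6, and the level fell to at most 0.260 of its PBS level (log2 difference -2.65 ± 0.17 (SE), adjusted p = 3.4e-07). Its fall is known only as this bound. *Gdf6*, a ligand of the BMP family, had log2 signals of 9.77, 9.79 and 9.85 with PBS and 7.16, 7.39 and 7.32 with AngII and fell to 0.175 of its PBS level (log2 difference -2.51 ± 0.13 (SE), adjusted p = 4.1e-08), the largest decrease among named genes whose means were at log2 6 or higher in both groups. *Bmp4* had log2 signals of 11.17, 11.09 and 11.43 with PBS and 10.37, 10.37 and 10.40 with AngII and fell to 0.555 of its PBS level. Genes known to be induced by BMP signaling also fell, with *Id1* at 8.75, 8.82 and 8.90 with PBS and 8.09, 8.21 and 8.27 with AngII, down to 0.645 of its PBS level, and *Smad6* down to 0.631 of its PBS level. The receptors *Bmpr1a* and *Acvrl1* fell to 0.715 and 0.683 of their PBS levels. The 5 raised members included the extracellular BMP modulators *Bmper* (1.95-fold) and *Grem1* (1.64-fold), the receptor *Bmpr1b* (1.53-fold) and *Id3* (1.18-fold), so the ID genes did not share a direction. *Smad1* (0.04) and *Smad5* (-0.12), the other receptor-regulated SMADs of this branch, did not pass.

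**Figure D4:**
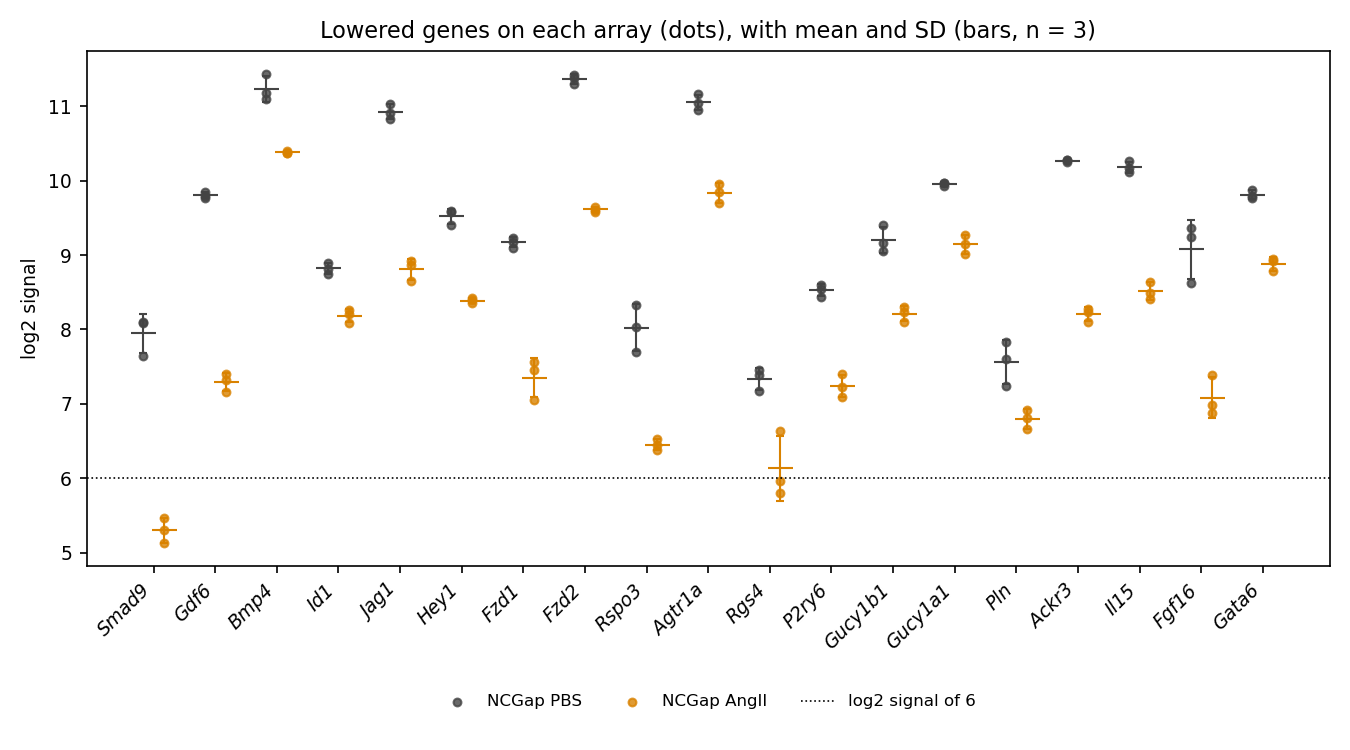
Points are the log2 signals of lowered genes on each of the 3 NCGap PBS (grey) and 3 NCGap AngII (orange) arrays, bars are the mean and SD, and the dotted line marks the log2 signal of 6. The genes were picked as lowered, so the lack of overlap between their groups follows from that choice (42.2% of all tested probe sets did not overlap). The AngII mean of *Smad9* is under 6.

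A Notch ligand and the Wnt receptor genes *Fzd1* and *Fzd2* were among the genes lowered most. *Jag1*, a Notch ligand that smooth muscle cells present to each other, had log2 signals of 10.91, 10.83 and 11.03 with PBS and 8.86, 8.65 and 8.92 with AngII and fell to 0.231 of its PBS level (log2 difference -2.11 ± 0.085 (SE), adjusted p = 4.3e-09). The Notch target repressors *Hey1* and *Hey2* fell to 0.455 and 0.530 of their PBS levels. These were 3 of the 4 lowered genes among 17 tested, while the receptors *Notch1* and *Notch2* rose 1.67-fold and 1.29-fold (1 raised gene without AngII replicate 1 or 3 or PBS replicate 1 or 2) and *Notch3*, the main receptor of smooth muscle, had a log2 difference of 0.05. Of 37 tested Wnt genes 14 fell, 3 of them at least 2-fold, and 2 rose. *Fzd1*, a Wnt receptor, had log2 signals of 9.18, 9.10 and 9.23 with PBS and 7.05, 7.56 and 7.45 with AngII. *Fzd2* had 11.38, 11.30 and 11.42 with PBS and 9.58, 9.61 and 9.65 with AngII. *Rspo3*, a secreted amplifier of Wnt signaling, had 8.04, 7.70 and 8.33 with PBS and 6.39, 6.44 and 6.53 with AngII. Every AngII array of the 3 genes lay below every PBS array, and the levels fell to 0.284 of the PBS level (log2 difference -1.82 ± 0.12 (SE), adjusted p = 3.8e-07) for *Fzd1*, 0.297 of the PBS level (log2 difference -1.75 ± 0.067 (SE), adjusted p = 3.0e-09) for *Fzd2* and 0.336 of their PBS levels (log2 difference -1.57 ± 0.13 (SE), adjusted p = 2.3e-06) for *Rspo3*. *Wnt5a*, a non-canonical ligand, fell to 0.695 of its PBS level, *Rnf43* to 0.557 of its PBS level and *Nkd2*, an inhibitor of the pathway, to 0.504 of its PBS level. The beta-catenin target *Axin2* (log2 difference -0.23) and the receptor gene *Fzd7* (-0.10) did not pass.

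Inflammatory genes rose in part. Of 29 tested cytokines, receptors and SOCS genes 15 rose and 3 fell. *Il1rl1*, the receptor for IL-33, was already well expressed and had log2 signals of 9.66, 9.52 and 9.47 with PBS and 12.16, 12.17 and 12.19 with AngII, a rise of 6.17-fold (log2 difference 2.63 ± 0.066 (SE), adjusted p = 1.4e-10). *Socs5* rose 3.68-fold, *Lif* 2.12-fold, *Il11* at least 1.14-fold and *Il6* 1.44-fold. *Il15* had log2 signals of 10.11, 10.17 and 10.26 with PBS and 8.49, 8.64 and 8.41 with AngII and fell to 0.315 of its PBS level (log2 difference -1.67 ± 0.086 (SE), adjusted p = 3.9e-08), and the death receptor *Fas* fell to 0.487 of its PBS level. Of 17 chemokine genes 5 rose and 2 fell (1 fell with centred arrays and when any 1 of the 6 arrays other than AngII replicate 3 was left out). *Ccl2*, the monocyte attractant, had log2 signals of 9.53, 9.31 and 9.57 with PBS and 10.67, 10.80 and 10.79 with AngII and rose 2.44-fold (log2 difference 1.28 ± 0.081 (SE), adjusted p = 2.2e-07). *Cxcl1* had 7.63, 7.56 and 7.03 with PBS and 8.63, 8.69 and 8.70 with AngII and rose 2.41-fold. Its PBS replicate 3 was lower than the other PBS arrays, and the AngII arrays lay close together above all of them. *Ackr3*, an atypical receptor that takes up the chemokine CXCL12, had log2 signals of 10.28, 10.26 and 10.28 with PBS and 8.23, 8.10 and 8.28 with AngII and fell to 0.239 of its PBS level (log2 difference -2.07 ± 0.09 (SE), adjusted p = 8.7e-09), while *Cxcl12* had a log2 difference of 0.14 and did not pass.

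NF-kappa-B genes changed less, with 6 of 23 raised and 2 lowered (1 lowered with centred arrays and when any 1 of the 6 arrays was left out). *Icam1* and *Vcam1*, adhesion molecules for leukocytes, rose 1.74-fold and 1.5-fold, and *Nfkb1* rose 1.43-fold, while *Nfkbia*, which encodes the inhibitor I-kappa-B alpha, had a log2 difference of -0.05. Of 33 interferon response genes 1 rose and 7 fell, a lowered share of 21.2% that was near the background of 18.7%. *Eif2ak2*, the kinase PKR, fell to 0.606 of its PBS level and *Stat2* to 0.694 of its PBS level. The 1 raised gene, *Usp18*, had log2 signals of 6.15, 6.02 and 6.45 with PBS and 7.71, 7.22 and 7.92 with AngII and rose 2.66-fold (log2 difference 1.41 ± 0.4 (SE), adjusted p = 0.018), and it lost its call without AngII replicate 1 or 3, without PBS replicate 1 or 2 and without moderation of the spread.

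The largest measured rise was that of *Ptgs2*, which encodes cyclooxygenase 2, the inducible enzyme of prostaglandin synthesis. It had log2 signals of 7.82, 7.44 and 7.78 with PBS and 11.78, 11.90 and 11.79 with AngII, a rise of 17.6-fold (log2 difference 4.14 ± 0.13 (SE), adjusted p = 4.7e-10). Of 15 tested prostaglandin genes 7 rose and 0 fell (1 fell without AngII replicate 3 or PBS replicate 2 and with the replicate number as a block). *Pla2g4a*, the cytosolic phospholipase A2 that releases arachidonic acid, rose 2.20-fold, and *Slco2a1*, a prostaglandin transporter, rose 2.51-fold. *Ptgis*, prostacyclin synthase, rose 1.21-fold, while *Ptges*, which makes prostaglandin E2, had a log2 difference of 0.03.

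Of 21 tested pericellular proteolysis and clotting genes 11 rose and 0 fell (1 fell without AngII replicate 3). *Serpinb2*, plasminogen activator inhibitor 2, had log2 signals of 5.08, 4.63 and 5.22 with PBS and 8.95, 8.80 and 9.14 with AngII. *Plaur*, the urokinase receptor, had 8.31, 8.26 and 8.45 with PBS and 11.35, 11.33 and 11.35 with AngII. *Plat*, tissue plasminogen activator, had 7.27, 7.13 and 7.38 with PBS and 9.27, 9.02 and 9.28 with AngII. No AngII array overlapped a PBS array, and the rise was at least 7.78-fold (log2 difference 3.98 ± 0.14 (SE), adjusted p = 1.3e-09) for *Serpinb2*, 8.01-fold (log2 difference 3.0 ± 0.093 (SE), adjusted p = 5.2e-10) for *Plaur* and 3.81-fold (log2 difference 1.93 ± 0.11 (SE), adjusted p = 1.0e-07) for *Plat*. Both the activator and an inhibitor of plasminogen activation were thus higher. *F3*, tissue factor, which starts clotting, rose 2.10-fold, *Tfpi2* 2.39-fold and *Thbd*, thrombomodulin, 1.45-fold. *Plau*, urokinase, lay between 4.89 and 5.17 on the 6 arrays and was not tested.

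Several genes of cartilage-type and pericellular matrix rose. *Acan*, the cartilage proteoglycan aggrecan, had log2 signals of 7.74, 7.46 and 7.81 with PBS and 9.82, 9.77 and 9.79 with AngII and rose 4.35-fold (log2 difference 2.12 ± 0.094 (SE), adjusted p = 9.4e-09). *Cd44*, a hyaluronan receptor, had 9.67, 9.63 and 9.59 with PBS and 11.31, 11.51 and 11.42 with AngII and rose 3.45-fold. *Tnfaip6*, which modifies hyaluronan, had 7.60, 7.76 and 8.11 with PBS and 9.07, 9.28 and 9.21 with AngII and rose 2.57-fold. Of 30 tested proteoglycan and hyaluronan genes 9 rose and 5 fell, with *Sdc4* up 2.19-fold and *Vcan* up 1.33-fold, and the small proteoglycan gene *Lum* down to 0.785 of its PBS level. All 5 chondrogenic genes that the study followed up rose (*Acan*, *Tnfaip6*, *Runx1* 4.21-fold, *Olr1* at least 10.1-fold and *Spp1* 1.25-fold). The study had seen *Acan* rise with AngII in earlier RNA-seq and in RT-qPCR. It reports lower RT-qPCR levels of all 5 after *Alivec* knockdown. The genes were picked out partly from this array series, so their rise here is a description and not independent evidence. *Olr1*, the receptor for oxidised LDL, had log2 signals of 5.55, 5.17 and 5.87 with PBS and 9.14, 9.50 and 9.35 with AngII, with all PBS arrays under log2 6. Among 15 vascular calcification genes 6 rose and 2 fell. The phosphate transporters *Slc20a1* and *Slc20a2* rose 2.65-fold and 2.80-fold, and *Enpp1*, which makes the calcification inhibitor pyrophosphate, rose 2.04-fold, while *Alpl* (0.08) and *Mgp* (-0.04) did not pass.

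Of 36 collagen and matrix assembly genes 5 rose and 7 fell, shares near the background of 14.7% and 18.7%. The 7 became 3 without AngII replicate 1 or 3, 4 without AngII replicate 2 or PBS replicate 1, and 1 with centred arrays. With the replicate number as a block 9 fell. The most changed was *Loxl4*, a lysyl oxidase that crosslinks matrix, which rose 3.34-fold. *Col3a1* had log2 signals of 10.86, 10.82 and 10.90 with PBS and 10.33, 10.38 and 10.44 with AngII and fell to 0.719 of its PBS level. *Col1a1* (-0.15), *Col1a2* (-0.06) and *Fn1* (0.00) did not pass. Among 22 matrix proteases and inhibitors 3 rose and 6 fell, with *Timp1* up 1.90-fold, the aggrecanase *Adamts5* down to 0.459 of its PBS level (log2 difference -1.12 ± 0.1 (SE), adjusted p = 5.3e-06) and *Mmp11* down to 0.562 of its PBS level. Of 23 Hippo targets and matricellular genes 10 rose and 4 fell. *Tnc*, tenascin C, rose 2.22-fold and *Ccn1* 1.58-fold, whereas *Ankrd1*, a YAP target, fell to 0.486 of its PBS level and *Ccn2* had a log2 difference of 0.05.

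The contractile apparatus was only partly touched. Of 37 tested contractile genes 13 fell and 4 rose. *Acta2*, smooth muscle alpha-actin, had log2 signals of 12.47, 12.49 and 12.46 with PBS and 12.45, 12.38 and 12.39 with AngII, and the difference of -0.07 did not pass (adjusted p = 0.41). *Tagln* (log2 difference -0.07) and *Cnn1* (0.00) did not pass either, and their arrays overlapped. *Myh11*, smooth muscle myosin heavy chain, had log2 signals of 11.38, 11.38 and 11.43 with PBS and 11.09, 10.92 and 10.85 with AngII and fell to 0.735 of its PBS level (log2 difference -0.44 ± 0.08 (SE), adjusted p = 0.0011). *Lmod1*, *Mylk* and *Smtn* fell to 0.764, 0.741 and 0.768 of their PBS levels. *Myocd*, the coactivator of this programme, rose 1.29-fold, *Fhl2* rose 3.16-fold and *Itga7* rose 2.16-fold. The largest decreases on the list were in the nitric oxide and calcium handling genes. *Gucy1b1*, the beta subunit of soluble guanylate cyclase, had log2 signals of 9.16, 9.05 and 9.40 with PBS and 8.10, 8.30 and 8.23 with AngII and fell to 0.503 of its PBS level (log2 difference -0.99 ± 0.12 (SE), adjusted p = 6.1e-05). *Gucy1a1*, the alpha subunit, had 9.92, 9.97 and 9.97 with PBS and 9.15, 9.02 and 9.28 with AngII and fell to 0.570 of its PBS level. *Pln*, phospholamban, had 7.83, 7.24 and 7.61 with PBS and 6.66, 6.81 and 6.92 with AngII and fell to 0.590 of its PBS level. Both cyclase subunits were lower on every AngII array than on any PBS array.

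Over the cyclic nucleotide pathway 7 of 34 genes rose and 10 fell. *Pde5a*, which degrades cGMP, fell to 0.693 of its PBS level, so that a producing and a degrading enzyme were both lower, and *Prkg1*, the cGMP-dependent kinase, had a log2 difference of 0.02. *Akap12*, an anchor of protein kinase A, had log2 signals of 7.61, 7.89 and 7.97 with PBS and 11.09, 10.97 and 11.04 with AngII and rose 9.27-fold (log2 difference 3.21 ± 0.14 (SE), adjusted p = 8.7e-09), whereas *Akap5*, another such anchor, fell to 0.384 of its PBS level. Among 37 ion channel genes 9 rose and 5 fell. *Kcnn4*, the intermediate-conductance calcium-activated potassium channel, had log2 signals of 7.24, 6.45 and 7.11 with PBS and 9.64, 9.44 and 9.56 with AngII and rose 6.13-fold (log2 difference 2.62 ± 0.18 (SE), adjusted p = 5.9e-07). *Ano1*, a calcium-activated chloride channel, rose at least 3.13-fold and *Trpc4* 2.62-fold, while the log2 difference of *Cacna1c*, an L-type calcium channel gene, was -0.10 and did not pass.

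Genes of the actin cytoskeleton and of adhesion changed in a mixed way with more increases. Of 42 actin genes 16 rose and 4 fell. *Rnd1*, which opposes stress fibres, rose 4.78-fold, *Flnc*, a filamin, 3.25-fold and *Cdc42ep3* 2.52-fold, whereas *Cdc42ep2*, a related *Cdc42* effector, had log2 signals of 9.32, 9.13 and 9.45 with PBS and 7.67, 7.71 and 7.99 with AngII and fell to 0.351 of its PBS level (log2 difference -1.51 ± 0.1 (SE), adjusted p = 4.4e-07). Integrins and cadherins were split, 7 of 20 raised and 6 lowered, with *Itga5*, the fibronectin receptor subunit, up 2.47-fold and *Itga1* down to 0.793 of its PBS level. Of 31 guidance genes 10 rose and 8 fell (5 with centred arrays). *Sema7a*, a membrane-anchored semaphorin, rose 5.10-fold and the ephrin receptor *Epha2* 3.75-fold, while *Epha4*, another ephrin receptor, had log2 signals of 7.87, 8.05 and 8.29 with PBS and 6.77, 6.07 and 6.64 with AngII and fell to 0.336 of its PBS level.

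Ribosome biogenesis genes rose as a broad group of small changes. Of 63 tested members 47 rose and 0 fell, and 0 of the 47 reached 2-fold, with a median log2 difference of 0.41. *Wdr43*, a component of the early processing complex, had log2 signals of 9.97, 10.0 and 9.97 with PBS and 10.90, 10.83 and 10.90 with AngII and rose 1.86-fold (log2 difference 0.90 ± 0.074 (SE), adjusted p = 2.5e-06). *Nop58*, a box C/D snoRNP protein, had 10.75, 10.86 and 10.70 with PBS and 11.18, 11.27 and 11.38 with AngII and rose 1.43-fold. *Polr1b* and *Polr1e*, subunits of RNA polymerase I, rose 1.60-fold and 1.79-fold. The abundant nucleolar proteins *Ncl* (0.17) and *Npm1* (0.04) did not pass. The ribosomal protein genes behaved otherwise. Of 48 tested members 0 rose and 2 fell. The 2 became 0 without AngII replicate 1 or 2 or PBS replicate 1 or 2 and with centred arrays. The highest lowered count in any alternative was 9. The median log2 difference of the list was -0.05, as over all probe sets.

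**Figure D5:**
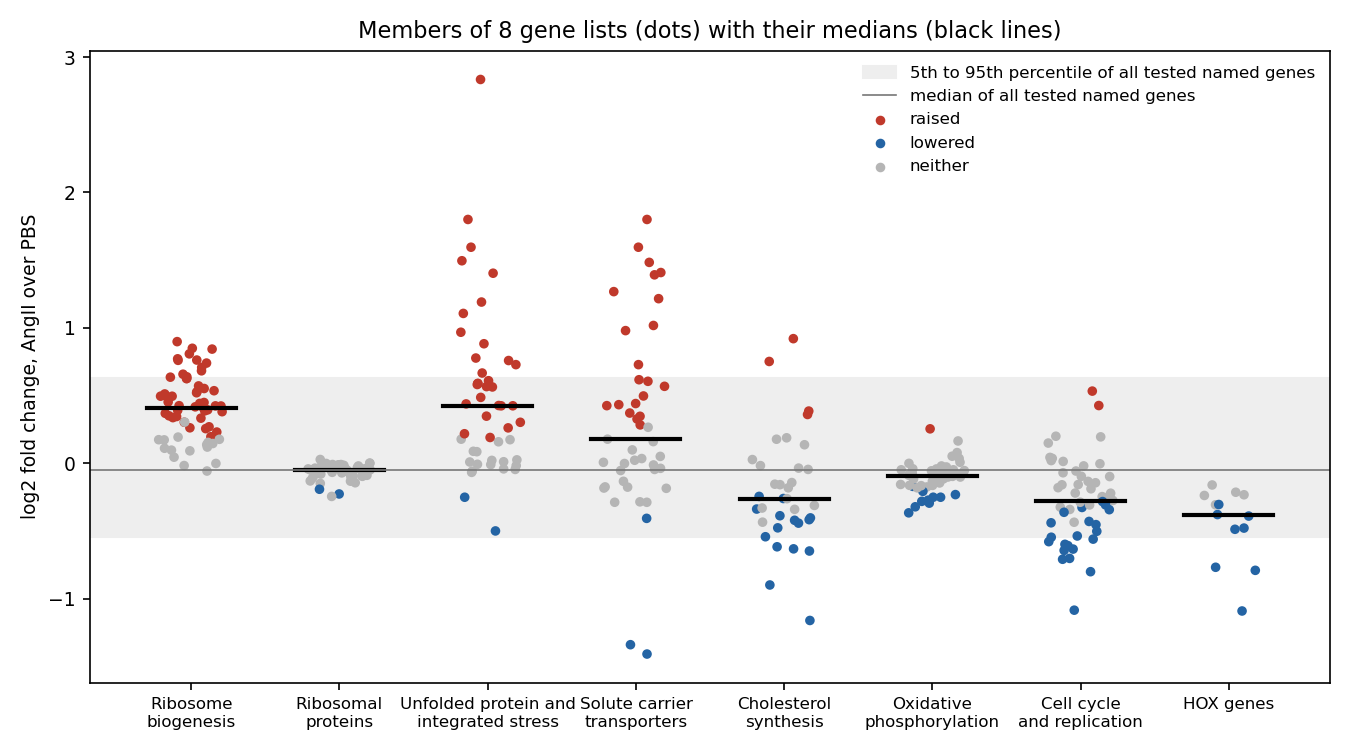
Points are the log2 fold changes of the tested members of 8 gene lists, red where raised, blue where lowered and grey where neither at an adjusted p under 0.05 (n = 3 arrays per group), black lines are list medians, and the band spans the 5th to 95th percentile of all tested named genes (-0.54 to 0.63). Ribosome biogenesis genes lie almost wholly above 0 (median 0.41), ribosomal protein genes lie close to it, and HOX genes lie below it (median -0.38).

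Of 47 tested genes of the unfolded protein and integrated stress responses 29 rose and 2 fell (1 fell without AngII replicate 1 or 2 or PBS replicate 3 and with centred arrays), with a median log2 difference of 0.42. The integrated stress response acts through *Atf4*, which induces amino acid synthesis and import, and the members that rose most belong to that branch. *Chac1*, a glutathione-degrading enzyme and *Atf4* target, had log2 signals of 6.33, 6.39 and 6.38 with PBS and 9.04, 9.21 and 9.35 with AngII and rose 7.13-fold (log2 difference 2.83 ± 0.099 (SE), adjusted p = 1.3e-09). *Trib3* rose 2.82-fold, the cystine transporter *Slc7a11* 3.48-fold, *Slc7a5* 3.02-fold, the serine synthesis gene *Psat1* 1.95-fold and asparagine synthetase *Asns* 1.84-fold. *Atf4* itself rose 1.5-fold. Chaperones of the endoplasmic reticulum moved less. *Hspa5*, which encodes BiP, had log2 signals of 11.99, 11.83 and 11.96 with PBS and 12.34, 12.44 and 12.46 with AngII and rose 1.40-fold, while *Calr* (0.01), *Canx* (0.02) and *Pdia4* (-0.05) did not pass. *Eif2ak3*, the kinase PERK, fell to 0.707 of its PBS level. Of 21 heat shock genes 4 rose (8 with centred arrays) and 0 fell (1 without PBS replicate 2), with *Hspa1a* up 2.05-fold.

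Of 45 tested transporters 21 rose, 3 fell (5 without AngII replicate 3) and 21 did not pass. Beside the amino acid carriers, *Slc12a2*, a sodium, potassium and chloride cotransporter, rose 2.41-fold and *Slc4a7*, a bicarbonate cotransporter, 2.62-fold. The 2 largest decreases were the iron exporter *Slc40a1*, at 8.50, 8.52 and 8.42 with PBS and 7.32, 7.09 and 6.80 with AngII, down to 0.376 of its PBS level, and the arginine transporter *Slc7a2*, at 10.27, 10.19 and 10.29 with PBS and 8.91, 8.62 and 9.19 with AngII, down to 0.395 of its PBS level. *Tfrc*, the transferrin receptor for iron uptake, rose 1.98-fold in the opposite direction to the exporter. Of 29 glycolysis genes 6 rose and 6 fell, 20.7% each way, near the background of 14.7% and 18.7%. *Hk2*, the inducible hexokinase, had log2 signals of 5.79, 5.61 and 5.75 with PBS and 7.54, 7.62 and 7.80 with AngII and rose at least 3.14-fold (log2 difference 1.94 ± 0.2 (SE), adjusted p = 1.6e-05), the platelet phosphofructokinase *Pfkp* rose 1.90-fold and the glucose transporters *Slc2a1* and *Slc2a3* 1.86-fold and 1.80-fold, whereas *Gapdh* (0.10), *Eno1* (0.00) and *Pkm* (0.14) did not pass. Of 47 oxidative phosphorylation genes 1 rose and 10 fell, a lowered share of 21.3% near the background of 18.7%. The 1 became 0 without AngII replicate 1 or 2 or PBS replicate 1 or 2, and 2 without PBS replicate 3. The 10 became 3 without AngII replicate 1 or 2, 4 without PBS replicate 1, 6 without PBS replicate 3 and 2 with centred arrays. The highest lowered count in any alternative was 14.

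Of 35 tested cholesterol and lipid synthesis genes 15 fell, 4 rose and 16 did not pass. *Dhcr7*, the last enzyme of the pathway, had log2 signals of 7.87, 7.74 and 8.03 with PBS and 6.77, 6.54 and 6.84 with AngII and fell to 0.447 of its PBS level (log2 difference -1.16 ± 0.091 (SE), adjusted p = 1.5e-06). *Fads1* and *Fads2*, desaturases of fatty acids, fell to 0.536 and 0.638 of their PBS levels, and *Fdft1*, squalene synthase, to 0.652 of its PBS level. The raised members were *Insig1* (1.89-fold), which restrains the pathway, *Msmo1* (1.68-fold), *Idi1* (1.31-fold) and *Sqle* (1.28-fold), so that enzymes of a single pathway moved in opposite directions, and *Srebf2*, its master regulator, had a log2 difference of 0.19.

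Redox genes had no common direction, with 7 of 37 raised and 7 lowered, near the background in both (12 lowered without PBS replicate 2). The NADPH oxidase genes of smooth muscle moved apart. *Nox1* had log2 signals of 5.89, 5.54 and 5.57 with PBS and 6.95, 7.0 and 6.86 with AngII and rose at least 1.92-fold (log2 difference 1.27 ± 0.13 (SE), adjusted p = 1.7e-05). *Nox4* had 9.84, 9.89 and 10.08 with PBS and 9.39, 9.41 and 9.40 with AngII and fell to 0.689 of its PBS level (log2 difference -0.54 ± 0.093 (SE), adjusted p = 8.9e-04). *Nox1* was thus near the lower limit with PBS and *Nox4* well above it in both groups, and the groups overlapped for neither. *Hmox1* (-0.16) and *Nfe2l2* (-0.01) did not pass.

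Of 53 tested cell cycle genes 21 fell, 2 rose (1 without PBS replicate 2) and 30 did not pass, with a median log2 difference of -0.28. The decreases were in replication and control genes. *Brca2*, a recombination repair gene, had log2 signals of 7.29, 7.33 and 7.74 with PBS and 6.49, 6.41 and 6.21 with AngII and fell to 0.471 of its PBS level (log2 difference -1.09 ± 0.16 (SE), adjusted p = 2.3e-04). *Cdkn1b*, which encodes the inhibitor p27, had 7.96, 7.92 and 7.92 with PBS and 6.95, 6.99 and 7.46 with AngII and fell to 0.574 of its PBS level. The replicative helicase genes *Mcm2*, *Mcm6* and *Mcm7* fell to 0.644, 0.669 and 0.678 of their PBS levels, and the thymidylate synthase gene *Tyms* to 0.614 of its PBS level. Both activators and inhibitors of the cycle were among the lowered genes, and *Ccnd1* (0.00), *Ccnb1* (-0.22) and *Cdk1* (-0.28) did not pass. Of 27 p53 target genes 5 rose and 8 fell. *Ccng2*, cyclin G2, fell to 0.360 of its PBS level and *Cdkn1a*, which encodes p21, to 0.744 of its PBS level, whereas *Plk3* rose at least 1.07-fold.

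Of 13 tested HOX genes and their cofactors, transcription factors of positional identity, 8 fell and 0 rose. *Hoxa7* had log2 signals of 8.28, 8.01 and 8.53 with PBS and 7.11, 7.10 and 7.33 with AngII and fell to 0.469 of its PBS level (log2 difference -1.09 ± 0.15 (SE), adjusted p = 1.8e-04). *Hoxa6* and *Hoxd9* fell to 0.578 and 0.587 of their PBS levels. Of 34 vascular developmental factors 18 fell, 6 rose and 10 did not pass. *Sox4* had log2 signals of 8.81, 9.18 and 8.89 with PBS and 7.63, 7.59 and 7.69 with AngII. *Tbx18*, a factor of mural cell lineages, had 8.43, 8.46 and 8.49 with PBS and 6.89, 7.48 and 7.30 with AngII. *Gata6*, a factor of the smooth muscle lineage, had 9.88, 9.76 and 9.80 with PBS and 8.92, 8.78 and 8.94 with AngII. The AngII arrays of all 3 genes were below all their PBS arrays, and the levels fell to 0.399 of the PBS level (log2 difference -1.32 ± 0.13 (SE), adjusted p = 9.6e-06) for *Sox4*, 0.424 of the PBS level (log2 difference -1.24 ± 0.14 (SE), adjusted p = 2.5e-05) for *Tbx18* and 0.524 of their PBS levels (log2 difference -0.93 ± 0.068 (SE), adjusted p = 8.1e-07) for *Gata6*. *Nr2f2*, an orphan nuclear receptor, fell to 0.497 of its PBS level, and *Foxs1*, a forkhead factor of perivascular cells, rose 2.62-fold. Of 57 zinc finger genes of the KRAB type, which encode transcriptional repressors, 21 fell and 5 rose (1 to 3 rose without any 1 of the AngII arrays or PBS replicate 1 or 2, and 3 with the replicate number as a block), with *Zfp458* down to at most 0.513 of its PBS level.

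Of 17 tested circadian clock genes, *Nfil3* and *Bhlhe40* among them, 10 rose and 2 fell. *Bmal1*, the core activator, had log2 signals of 8.42, 8.29 and 8.41 with PBS and 9.32, 9.39 and 9.49 with AngII and rose 2.04-fold (log2 difference 1.03 ± 0.079 (SE), adjusted p = 1.3e-06). *Per2* and *Per1*, the negative limb, rose 1.79-fold and 1.57-fold, and *Cry1* 1.34-fold. *Dbp*, a clock output gene, had 8.20, 8.18 and 8.16 with PBS and 7.50, 7.33 and 7.28 with AngII and fell to 0.571 of its PBS level (log2 difference -0.81 ± 0.089 (SE), adjusted p = 2.7e-05), and *Per3* fell to 0.649 of its PBS level.

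The remaining genes among the 15 most raised and 15 most lowered belong to no list above. *Klhl41*, a Kelch protein known from skeletal muscle sarcomeres, had log2 signals of 7.27, 7.17 and 7.35 with PBS and 10.71, 10.96 and 10.86 with AngII and rose 12-fold (log2 difference 3.58 ± 0.097 (SE), adjusted p = 2.5e-10). *Fam110c* rose at least 4.40-fold, *Myct1* 10.7-fold and *C9h6orf141* 9.99-fold. Their AngII arrays all lay more than 2 log2 units above every PBS array. *Hs6st1*, a sulfotransferase of heparan sulfate, had log2 signals of 9.09, 9.09 and 9.07 with PBS and 7.32, 7.16 and 7.44 with AngII and fell to 0.291 of its PBS level (log2 difference -1.78 ± 0.076 (SE), adjusted p = 7.6e-09). *Palmd*, palmdelphin, fell to at most 0.279 of its PBS level, *Pax9*, a paired-box factor, to 0.298 of its PBS level, *Magee1* to 0.344 of its PBS level and *Mybphl* to 0.344 of its PBS level. Among 13 reference genes *Tfrc* rose and 2 fell, *Gusb* to 0.823 of its PBS level and *Sdha* to 0.840 of its PBS level, both of which lost the call with centred arrays and without PBS replicate 3 (1 fell without PBS replicate 1 or any 1 of the AngII arrays), while *Gapdh*, *Actb* (-0.01) and *Ppia* (-0.01) did not pass.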

How the data were processed

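RNA of RVSMCs was hybridized by the authors to Clariom S rat arrays, and the deposited table gives 1 log2 signal for each of 23188 probe sets, which the authors obtained in Partek by Robust Multichip Average normalization of the scanned arrays. They were used as deposited. No background or summary option is given in the sources used here. The labels write NGGap in sample titles for what their descriptions call the negative control GapmeR, and both were taken as NCGap. Arrays have no read depth, and their number (3 per group) limits the precision.

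Probe sets were named by their platform gene identifiers, and all 15049 named probe sets were found in the RefSeq gene table of GRCr8, while 8139 had no name. Of several probe sets of a gene, the brightest over the 6 NCGap arrays was used. Differences were tested with limma 3.58.1 in R 4.3.3 (lmFit and eBayes on 4 group means of 12 arrays, 8 residual and 4.08 prior degrees of freedom), with Benjamini-Hochberg adjustment over 14796 probe sets. Where a group mean was under log2 6 it was set to 6, and the fold is written as a bound. Fold classes were counted on the log2 differences before this step. The test was checked on simulated data.

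The 56 gene lists were written from memory of each pathway and hold 2059 entries, of which 293 had no named probe set and 269 did not pass the filter. Lists are described by counts and medians beside all tested genes, and no set test was run. The genes named are the 15 most raised and the 15 most lowered, the first 4 genes of each list and its 4 most changed called members. Other genes in the text were chosen after their values were seen. The members and lists were chosen with earlier results of these data known. Alternatives were another filter or none, only the 6 NCGap arrays, a prior that follows the signal, and no moderation. Others were arrays centred or quantile normalized once more, the replicate number as a block, and 1 probe set per gene. The thresholds of the study were another, and each of the 6 NCGap arrays was left out in turn.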

Additional observations from a re-analysis of the deposited data

How the results depend on the processing

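Raised and lowered probe sets numbered 1968 and 2652, and 1533 to 2309 and 1836 to 3017 under the alternatives. Leaving out 1 NCGap array gave 1631 to 2015 raised and 2012 to 2700 lowered. Centring each array gave 2309 and 1836, which turned the majority of calls from lowered to raised. The interaction of GapmeR and AngII had 0 calls in every limma setting and 692 at the thresholds of the study, an unadjusted p under 0.05 and a fold of at least 1.2. It has no value with only the 6 NCGap arrays. Of 265 called genes chosen by the naming rule, 244 kept their call in every alternative run for single genes (15, or 14 for Hoxa2, Mmp24 and Plk3, without the thresholds of the study), 21 lost it in at least 1, and 0 reversed. Of the 124 with a log2 difference of at least 1 in size, 123 kept it, and Usp18 was the exception. Those lost were otherwise small changes, among them Eln, Mmp2, Mki67, Nfatc2, Ptgs1, Tgfbr1 and Spred1.

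With the replicate number as a block, 2061 probe sets rose and 2858 fell. The labels number the arrays of each group as biological replicates and give no other link between groups. Deviations of same-numbered NCGap PBS and AngII arrays correlated at 0.027, 0.069 and 0.323, and those of differently numbered ones at -0.333 to 0.272. The same-numbered values were not all over 0.1, the cut used, so the numbers were not taken as pairs. Whether same-numbered arrays share a source was not tested. The block moved the raised count among KRAB zinc finger genes from 5 to 3, the lowered count among chemokines from 2 to 1, the lowered count among prostaglandin genes from 0 to 1 and the raised count among leukocyte markers from 0 to 1, and moved no other list count by over 1.5 times. Over all 16 alternatives 128 of 1792 list counts moved by over 1.5 times or to or from 0, all of them counts of 10 or fewer.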
